A study of Rattus norvegicus with 30 samples.

Results

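Lungs of 5 rats that had inhaled the low dose of copper oxide nanoparticles were compared with lungs of 5 rats that had breathed air, both collected at day 28, which was 22 days after the last exposure. These 10 arrays were taken by their titles from the 30 arrays of the study, which holds 6 groups of 5 rats. All rats were adult male Wistar Unilever outbred animals (HsdCpb:WU), 8 weeks old at delivery. The low dose was 3.3 mg/m3 and the high dose 13.2 mg/m3, given through the nose as a 6-hour equivalent on each of 5 consecutive days. The air rats are labelled 0 mg/m3, although the treatment label of every sample names the particles. The day 6 groups, collected 1 day after the last exposure, and the high dose rats of day 28 were used here only to place the comparison. Each array set the RNA of 1 rat's whole lung against a common reference RNA, so every level below is a log2 ratio of lung over reference, and levels of different genes are not comparable. The labels name the reference as mouse RNA in one place and as a pool of 14 rat cell lines in another. In whole lung, fewer cells of a type and less RNA per cell cannot be told apart.

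Most lung markers checked were present in both groups. Probes for Sftpc, Sftpb, Ager, Aqp5, Scgb1a1 and Pecam1, which mark the alveolar, airway and endothelial cells of lung, were well above background on all 10 arrays. The macrophage marker Marco was so on 2 arrays, while the macrophage markers Cd68 and Mrc1 were on all 10. The T cell marker Cd2 was so on 5, and Cd3e and Cd3g on all 10. Median lung signal was 216 to 425 units across these arrays, and 60.6% to 67.2% of probes were well above background. Pairs of low dose arrays correlated at 0.936 to 0.984, pairs of air arrays at 0.953 to 0.985, and low dose with air arrays at 0.944 to 0.980. Air rat 8 and low dose rat 54 stood apart for a number of the genes named here. Heart muscle genes averaged 0.35 in low dose rat 54 and -1.38 to -0.94 in the other low dose rats, with air rats at -1.27 to -0.77.

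Of 18421 genes tested, 2 passed an adjusted p of 0.05 in low dose against air rats, which is 0.0109% of the genes. Both were lower in the low dose rats, and both belong to the circadian clock. They were Nr1d1, which encodes the repressor Rev-erb alpha, and Dbp, a transcription factor driven by the clock. At an unadjusted p of 0.05, 491 genes were higher and 606 were lower, together 5.96% of the genes. The number of genes past the threshold depended on how the rats were weighted. A fit that gives each array a weight by its spread, planned as an alternative, called 126 genes, 53 higher and 73 lower, with Nr1d1 and Dbp among them. Leaving out both air rat 8 and low dose rat 54, a pair chosen after the data were seen because many of the named genes had outlying values in these rats, gave 410 genes. The other 24 pairs of 1 air and 1 low dose rat gave 2 to 4 genes each. The count of 2 is therefore the count of this fit, and not the number of genes that differ.

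**Figure D1:**
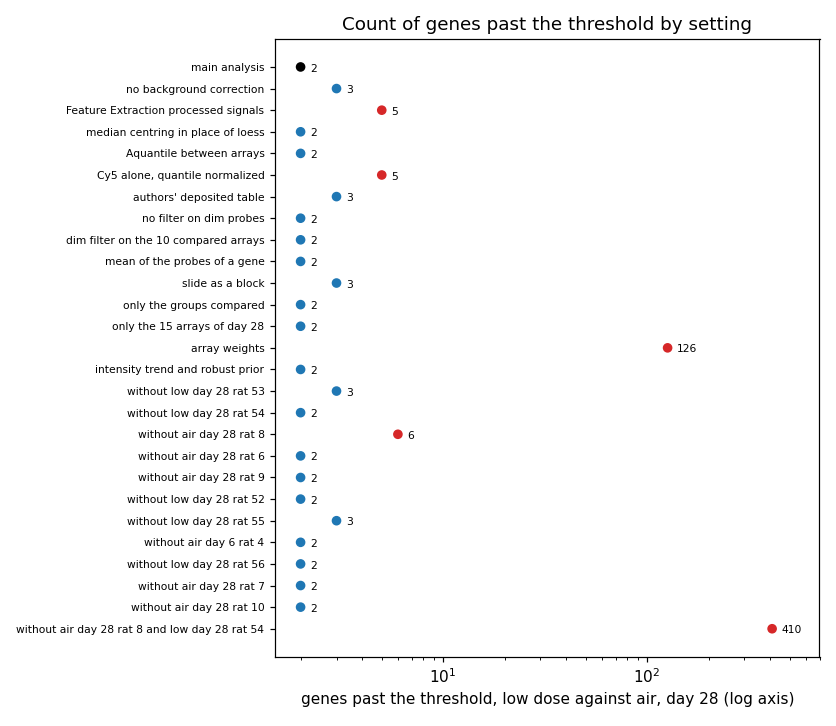
Number of genes past the adjusted p of 0.05 in low dose against air rats at day 28 (horizontal log axis) under each setting (rows). Black marks the reported analysis and red the settings that differ from it by more than 1.5 times. Most settings give 2 or 3 genes, while array weights give 126 and leaving out air rat 8 together with low dose rat 54, chosen after the data were seen, gives 410; the other 24 such pairs, not drawn, give 2 to 4.

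The circadian clock is a loop of transcription factors that runs in nearly every cell, lung included. Bmal1 pairs with Clock or Npas2 and switches on the Per, Cry and Nr1d genes through a DNA element called the E-box. The Per and Cry proteins hold that pair back, while Rev-erb alpha and beta (Nr1d1, Nr1d2) repress Bmal1 through an element they share with the ROR receptors. Dbp and Tef are outputs that act on a D-box, which Nfil3 opposes. Levels of these genes change through the day, and the hour of lung collection was not found in the sources used here.

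To show where these elements lie, 250 bases upstream of the annotated start are printed for Bmal1, which rises when the Nr1d genes fall in the loop, and for Nr1d1. They are RefSeq sequences of build GRCr8. Capitals mark the element shared by ROR and Rev-erb receptors in Bmal1 (plus strand, chr1:176766078-176766327) and the E-box CACGTG at the downstream of the 2 annotated starts of Nr1d1 (minus strand, chr10:84229455-84229704).

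Bmal1: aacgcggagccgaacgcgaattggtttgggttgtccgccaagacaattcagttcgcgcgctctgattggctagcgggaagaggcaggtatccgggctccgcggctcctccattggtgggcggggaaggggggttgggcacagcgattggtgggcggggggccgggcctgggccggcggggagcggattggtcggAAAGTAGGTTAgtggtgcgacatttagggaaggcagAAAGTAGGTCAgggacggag
Nr1d1: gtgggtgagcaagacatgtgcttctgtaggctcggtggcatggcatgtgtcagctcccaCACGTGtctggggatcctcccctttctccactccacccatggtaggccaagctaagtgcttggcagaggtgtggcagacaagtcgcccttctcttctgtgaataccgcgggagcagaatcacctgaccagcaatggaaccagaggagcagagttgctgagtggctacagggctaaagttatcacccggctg

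For the ROR and Rev-erb element a single string was searched: the letters of the 2 sites capitalised in Bmal1, with the base at which they differ left open. Searched on both strands, this string occurred in 0.0359% of 33469 upstream windows of this length, and 2 times in that of Bmal1. Because the string fits the Bmal1 sites letter for letter, that match is no test of Bmal1. Looser forms of the element were not searched, so its share among other windows is not known.  CACGTG occurred in 5.59% of windows, and in 4 of the 32 windows found for 26 of the 31 measured clock genes. The D-box TTATGTAA occurred in 0.828% of windows and, among the clock genes, in that of Per2. The windows of Dbp and of the upstream Nr1d1 start held none of the 3. A match describes the letters only.

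Nr1d1 was 1.06, 1.02, 1.08, 0.92 and 1.58 in air rats 6 to 10, and -0.67, -0.97, -0.74, -0.71 and -0.79 in low dose rats 52 to 56. Every low dose rat lay below every air rat, with a gap wider than the spread of either group. The means were 1.13 ± 0.26 and -0.77 ± 0.12 (SD, n = 5 each). The difference was -1.91 ± 0.19 on the log2 scale (SE, 95% confidence interval -2.29 to -1.53), a level 3.75-fold lower (limma, adjusted p = 1.03e-06). Within the slides that held both groups, with 1 or 2 rats of each, it was -1.93, -1.66 and -2.08.

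Dbp was -0.58, -0.69, -0.66, -0.28 and 0.52 in the air rats and -2.34, -2.24, -2.42, -2.40 and -2.48 in the low dose rats. The low dose rats lay close together and below all air rats. The difference was -2.04 ± 0.23 (SE), or 4.11-fold lower (limma, adjusted p = 8.41e-06). The other probes of Dbp gave -1.53 and -1.56. Within slides the difference was -1.67, -1.91 and -2.39.

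**Figure D2:**
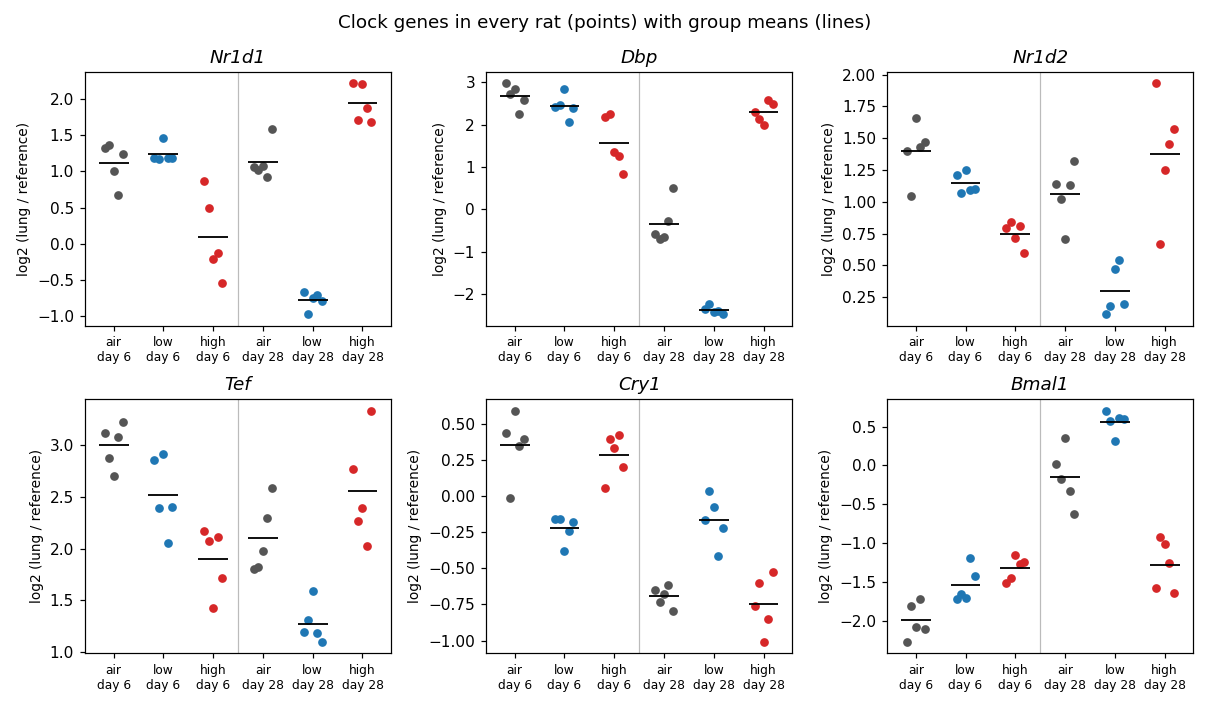
Log2 ratio of lung over reference (vertical axis) of 6 clock genes in each of the 30 rats (points), by dose and day, with group means (lines). At day 28 Nr1d1 and Dbp of all 5 low dose rats lie below those of all 5 air rats, and Dbp of the air rats themselves is -0.69 to 0.52 at day 28 against 2.26 to 2.98 at day 6.

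The rest of the clock did not pass the threshold in this fit. Cry1, a repressor of the loop, was -0.69 ± 0.07 in air and -0.17 ± 0.17 in low dose rats (SD), a difference of 0.53 ± 0.10 (SE, limma, adjusted p = 0.110), and its groups did not overlap. Nr1d2, which encodes Rev-erb beta, differed by -0.76 ± 0.15 (adjusted p = 0.117), with all low dose rats below all air rats. Bmal1 differed by 0.71 ± 0.16 (adjusted p = 0.329), and its groups overlapped at air rat 8 and low dose rat 54. Tef differed by -0.82 ± 0.20 (adjusted p = 0.502). Several of these genes passed under other settings. Nr1d2 passed with no background correction, with the Feature Extraction processed signals (-1.57, adjusted p = 0.0066), with Cy5 alone, with values of the authors' deposited table, with array weights and without air rat 8. Cry1 passed with the processed signals, with the slide as a block (0.54, adjusted p = 0.0194), with array weights and without low dose rat 55. Bmal1 passed with array weights and without air rat 8, and its other probe gave 0.45 in the reported fit. Cry2, Tef and Tspan4 passed with array weights.

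Of the 31 measured core clock and clock output genes, 2 were lower past the threshold and none higher. At an unadjusted p of 0.05, 8 were lower and 3 higher, where 3.29% and 2.67% of all genes were. In 6 of the 31 every low dose rat lay below every air rat, and in 2 every low dose rat lay above, against 0.32% and 0.342% of all genes. The median difference of the 31 was -0.10, with -0.01 over all genes. Per1, an early target of the loop, was 0.03 apart, and Ciart, another repressor, was -0.10 apart. Their medians varied little over all 6 groups, at 0.09 to 0.29 for Per1 and -0.38 to 0.03 for Ciart. Those of Dbp ran from -2.40 to 2.72. A small difference in the probes of Per1 and Ciart therefore does not show that these genes were unchanged. The genes were listed with earlier results of these data known, so these counts describe the list.

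The direct test between the exposed groups at day 28 gave more clock genes. In high dose against low dose rats, 13 genes were higher and 13 lower of 18421 (0.0706% each), together 0.141% of the genes. Of the 31 clock genes, 7 were higher and 4 lower in the high dose rats. Dbp was 2.01 to 2.58 in the high dose rats and differed by 4.68 ± 0.23 (SE, limma, adjusted p = 3.68e-14), or 25.7-fold. The other Dbp probes gave smaller differences of 3.62 and 3.74. Nr1d1 differed by 2.71 ± 0.19 (adjusted p = 1.37e-10). Bmal1 was lower by -1.84 ± 0.16 (adjusted p = 1.40e-08). Per2, a repressor of the loop, was higher by 1.55 ± 0.15 and Npas2 lower by -1.30 ± 0.16. The second probe of Npas2 gave -0.04, so its probes disagreed, and the second probe of Bmal1 gave -1.04. The count of 26 was 9 on the 2 groups alone, 14 on the 15 arrays of day 28, and 17 without low dose rat 55.

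**Figure D3:**
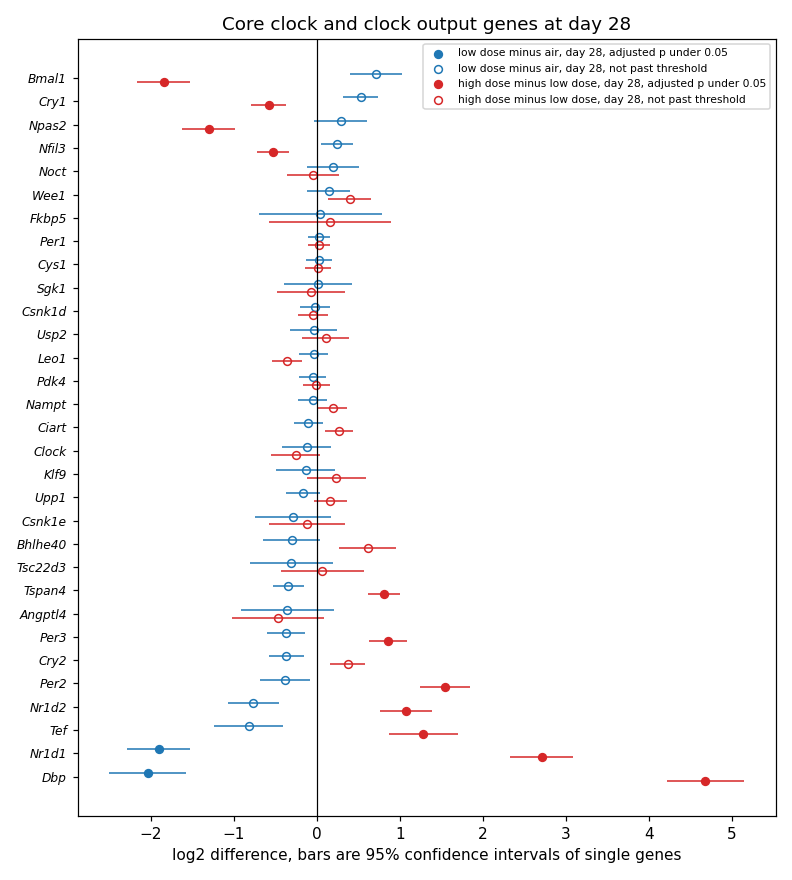
Log2 difference (horizontal axis, bars 95% confidence intervals of single genes) of 31 clock genes for low dose minus air (blue) and high dose minus low dose (red) at day 28. Filled points passed the adjusted p of 0.05. The comparisons share the low dose rats, so a low value in those rats moves both in opposite directions; Dbp is at -2.04 and 4.68.

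Air and high dose rats were set against each other as well, with the air rats shared with the low dose comparison. That comparison called 34 genes (0.185%), and 326 without air rat 8 or 111 without high dose rat 84. There, Dbp differed by 2.64, Bmal1 by -1.13, Per2 by 1.16 and Nr1d1 by 0.80 (limma, adjusted p = 5.40e-08, 0.000308, 0.000108 and 0.0592). For these same genes low dose minus air was -2.04, 0.71, -0.38 and -1.91. Dbp and Nr1d1 of the air rats thus lay between those of the exposed groups, with low dose below and high dose above. The order of the group means at day 28 did not follow the dose for either gene. Dbp of the air rats also differed between days, with means of 2.68 ± 0.28 at day 6 and -0.34 ± 0.50 at day 28 (SD). Nr1d1 of the air rats differed less, with medians of 1.23 at day 6 and 1.06 at day 28. No test was run between the days for air rats. What the hour of collection contributed to these differences was not tested.

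The genes that had risen at day 6 were back near the level of air rats. In low dose rats at day 6, 916 genes were higher (4.97%) and 322 lower (1.75%), together 6.72% of the genes. That count was 573 with median centring and 3089 with array weights. The median difference of the 916 was 0.57 at day 6 and 0.05 at day 28, and that of the 322 was -0.46 and -0.05. None of the 1238 passed the threshold at day 28. The difference at day 28 had the sign of day 6 in 63.6% of the 916 and 62.7% of the 322, where 61.4% of all genes did. Of the 176 that were higher by 2-fold or more at day 6, the median at day 28 was 0.06, and all 176 were closer to 0 than at day 6. Over all genes tested, 10883 of 18421 were closer to 0 at day 28. The 176 were picked for a large difference at day 6, which by itself favours smaller values at the other day.

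The change between days was tested directly, as the low dose difference at day 28 minus that at day 6. It passed the threshold for 359 genes, 57 higher (0.309%) and 302 lower (1.64%), together 1.95% of the genes; median centring gave 159 and array weights 1362. Of these, 338 had passed at day 6. Lcn2, an iron-binding defence protein of epithelium and neutrophils, was 5.39 to 6.25 in low dose rats at day 6 against 0.97 to 2.503 in air rats. At day 28 it was -0.10 to 1.42 in low dose and 0.07 to 1.99 in air rats, which overlap. Its change between days was -4.12 ± 0.47 (SE, limma, adjusted p = 3.12e-06). The chemokine Ccl17 went from a difference of 3.39 to 0.01, and the macrophage elastase Mmp12 from 3.48 to 0.15. Ccl2, which draws monocytes, went from 3.25 to 0.03, and S100a9, a neutrophil protein, from 3.31 to 0.07.

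The lists given next had genes past the threshold at day 6 and none at day 28. At day 6, 4.97% of all genes were higher and 1.75% lower past the threshold. At day 28 only 0.0109% passed, so a list without a call there does not show that its genes were unchanged. Of the 29 measured genes of sterol and fatty acid synthesis, 23 were higher and 1 lower at day 6, and none passed at day 28, with medians of 0.89 and 0.09. At an unadjusted p of 0.05, 2 of the 29 were higher at day 28, where 2.67% of all genes were. Insig1, one of them, differed by 1.09 at day 6 and 0.51 ± 0.21 (SE) at day 28. Of the 26 measured mitosis genes, 18 were higher at day 6 and none at day 28, with medians of 0.66 and -0.11. Neutrophil chemokines and markers had 9 of 15 higher and 1 lower at day 6, and none past the threshold at day 28. Mt1, a small metal-binding protein, differed by 1.06 at day 6 and by 0.27 ± 0.22 at day 28 (SE, limma, adjusted p = 0.772). Copper transport and chaperone genes are given for the metal in the particles: the median of 21 was -0.02 at day 6, with 3 higher and 2 lower, and -0.01 at day 28, with none past the threshold.

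**Figure D4:**
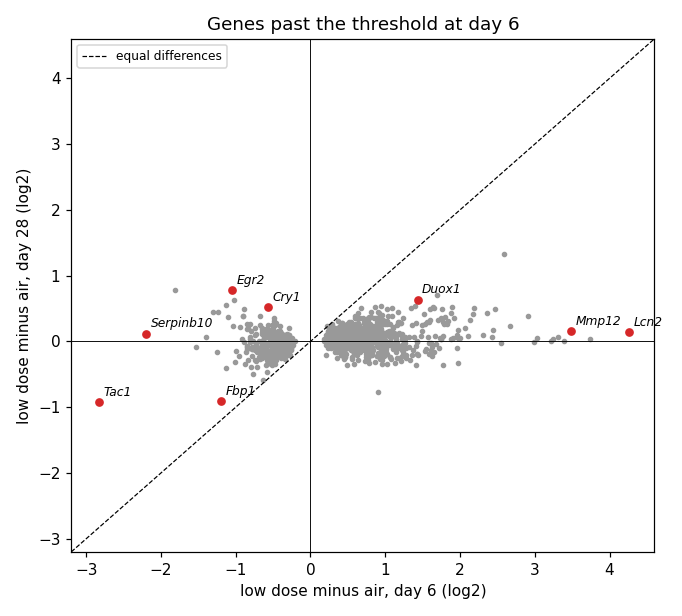
Log2 difference of low dose minus air at day 28 (vertical axis) against that at day 6 (horizontal axis) for the 1238 genes past the threshold at day 6; the dashed line marks equal differences. The points gather along 0 at day 28; Lcn2 goes from 4.27 to 0.15 and Fbp1 from -1.19 to -0.91.

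A few genes kept more of their day 6 difference, without passing the threshold at day 28. Fbp1, an enzyme of glucose synthesis named after its values were seen, was -1.19 at day 6 and -0.91 ± 0.29 at day 28 (SE, limma, adjusted p = 0.760). Duox1 and its partner Duoxa1, which make hydrogen peroxide at the airway surface, were 1.43 and 1.35 at day 6, and 0.64 and 0.50 at day 28. Tac1, the precursor of substance P, was -0.76 to 0.58 in low dose rats at day 6 against 2.37 to 2.84 in air rats. At day 28 the groups overlapped at 0.67 to 2.02 and 1.54 to 3.22, a difference of -0.92 ± 0.30 (adjusted p = 0.760). The second probe of Tac1 gave -1.04 at day 6 and -0.34 at day 28. Tac1 was among the genes called with array weights.

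In 12 of the 359 genes the difference was larger at day 28 than at day 6, Nr1d1 and Dbp among them. Nr1d1 differed by 0.12 at day 6, so its change between days was -2.03 ± 0.26 (SE, limma, adjusted p = 1.74e-05), and that of Dbp was -1.80 ± 0.32 (adjusted p = 0.000972). Cry1 was lower at day 6 (-0.58, adjusted p = 0.000344) and 0.53 apart at day 28, a change of 1.102 ± 0.14 (adjusted p = 2.07e-05).

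Outside the clock, none of the other 49 lists had a gene past the threshold at day 28, and 46 of them had a median within 0.2 of 0. Immediate early genes, which cells switch on quickly after a stimulus, had the highest median, at 0.27, with 6 of 21 higher at an unadjusted p of 0.05, where 2.67% of all genes were. The median was 0.47 with median centring, which moved the median of all genes to 0.11. Egr2 was -2.23 to -1.18 in air and -1.09 to -0.15 in low dose rats, a difference of 0.77 ± 0.23 (SE, limma, adjusted p = 0.760). Myc differed by 0.51 ± 0.12 (adjusted p = 0.476). Egr2 and Myc were higher in low dose rats within each slide that held both groups, while other such genes changed sign. The differences were 2.27, 1.44 and -0.94 for Fos, and 1.45, -0.22 and -0.58 for Junb. The first value of each is from the slide where air rat 8 was the only air rat. The mean of the list was -0.80 to 0.14 in air rats and -0.06 to 0.20 in low dose rats, with air rat 8 lowest. Without single rats the list median was 0.19 (air rat 8 left out) to 0.39 (air rat 7 left out). High dose rats of day 28, set against the same air rats, had a list median of 0.23. At day 6 the list median of low dose against air was -0.57.

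Mesothelial genes, which mark the covering of the lung, had the lowest median, at -0.67 over 6 genes, with Msln, Gpm6a and Wt1 lower at an unadjusted p of 0.05, where 3.29% of all genes were. Msln was -1.34 to 0.69 in air and -1.39 to -0.53 in low dose rats, and the groups overlapped. Within the slides that held both groups, with 1 or 2 rats of each, these genes changed sign. The positive values come from the slide where air rat 8 was the only air rat, set against low dose rats 53 and 54. The differences were 0.74, -1.18 and -1.78 for Msln, 0.81, -1.82 and -1.30 for Gpm6a, and 0.64, -0.68 and -1.44 for Wt1. Without single rats the median of the list was -0.95 (air rat 8 left out) to -0.48 (air rat 10 left out). It was -0.39 with the processed signals and -1.03 without both air rat 8 and low dose rat 54. A lower median was not particular to this comparison. It was -0.54 in low dose against air at day 6, and -0.46 in high dose against the same air rats at day 28. Interferon response genes had a median of -0.20, with 5 of 26 lower at an unadjusted p of 0.05, where 3.29% of all genes were. The median was -0.04 with median centring, which moved the median of all genes to 0.11 from -0.01. It was -0.31 without low dose rat 52. The mean of the list in that rat was 1.596, above all air rats (1.27 to 1.49). In high dose against the same air rats the list median was -0.21, and in low dose against air at day 6 it was 0.20. Rsad2, an antiviral enzyme, was 3.43 to 4.01 in air and 2.57 to 3.49 in low dose rats, a difference of -0.77 ± 0.27 (SE, limma, adjusted p = 0.760).

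**Figure D5:**
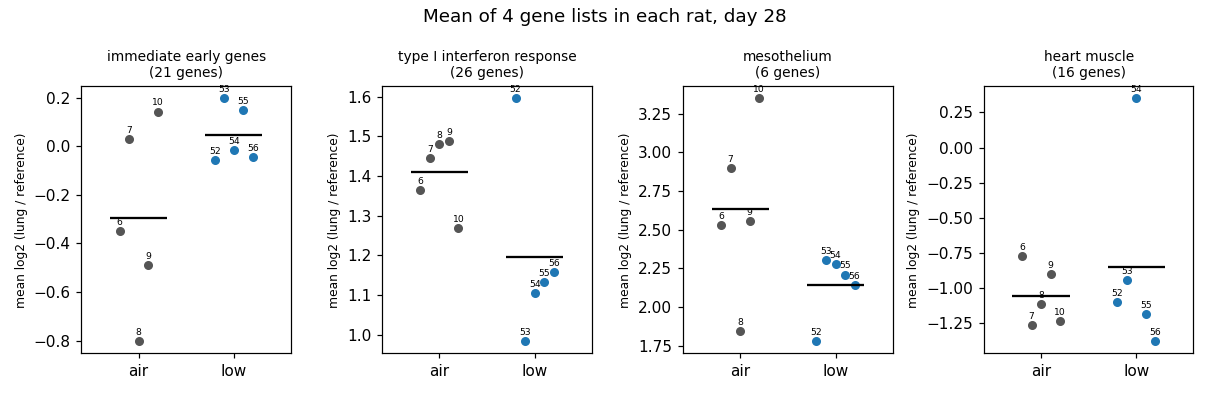
Mean log2 ratio of lung over reference (vertical axes, each with its own range) of 4 gene lists in the 5 air and 5 low dose rats of day 28 (points, with rat numbers) and group means (lines). The groups overlap in all 4 lists; low dose rat 54 is at 0.35 for heart muscle genes and air rat 8 at -0.80 for immediate early genes.

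The precision of the comparison bears on the genes that did not pass. The median SE of a difference was 0.12, so the interval of a typical gene reached 0.24 to either side. In these data 10 genes differed by 2-fold or more and only 2 passed the threshold, while Tac1, Tef, Nr1d2 and Bmal1 differed by over 1.5-fold without passing. In data simulated for this comparison, with 200 of 18421 genes changed, 60% of changes of 0.5, 94% of increases of 1 and 100% of changes of 2 were recovered. Another 8 genes that were left unchanged were also called. The simulated noise was independent, with 1 spread per gene on every array, while the weights of the real arrays ran from 0.47 to 2.24. The adjusted threshold is also easier to pass where many genes change, so these shares do not carry over to a comparison with 2 calls. A gene that was not called may therefore differ, also by more than 1.5-fold.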

How the data were processed

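Lung RNA (Cy5) of 30 rats was hybridised against a common reference (Cy3), in 1 dye orientation, on 2-colour arrays lying on 4 slides. Per the file headers, spots were read with Agilent Feature Extraction 11.0.1.1 and deposited as intensities. The authors also deposited a table of log2 ratios, which served as an alternative. Its columns had medians of -0.03 to -0.01. They correlated at 0.997 to 1.000 with ratios normalized here by loess without background correction. Here, median intensities were background-corrected (normexp, offset 50) and normalized within arrays by loess with limma. Control spots had weight 0 and outlier spots (1.39%) were dropped. Probes well above background in Cy5 on at least 5 arrays were kept (20853 of 30367), and genes were named by accession through RefSeq (GRCr8), with the brightest probe per gene: 18421 genes, 11331 with a symbol. A 6-group limma fit with Benjamini-Hochberg adjustment at 0.05 gave all tests; it was tested on simulated data. Rats are separate animals, and their number limits the precision.

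Named genes were those past the threshold with groups that do not overlap, then the smallest p until 20, the 2 smallest p of each list, the largest changes at day 6 and between doses, and a fixed panel. Members and lists were chosen with earlier results of these data known. Alternatives covered background, normalization, channel, filter, probe choice, slide, samples in the fit, array weights, prior and single rats; fits without a pair of rats, and those for the day 6 and high dose counts and list medians, were added after the data were seen.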

Additional observations from a re-analysis of the deposited data

Results flagged for a closer look

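Groups of 5 rats were checked for 148 named genes, in air and low dose rats of day 28. In 26 of 296 such groups 1 rat lay apart from the other 4 by more than 0.71 of the group's range. That cut-off sets apart about 1 in 20 groups of independent, normally distributed values. These groups share the same rats, and many genes were named for a small p in this comparison. The 1 in 20 is therefore no benchmark for them. Air rat 8 was at -0.32 for Adora2b (others 0.05 to 0.20), 0.91 for Ahsp (others 2.19 to 2.56), -1.99 for Asns (others -2.53 to -2.44), -0.0159 for Cdkn1a (others -0.83 to -0.66). Air rat 8 was at -0.0756 for Col14a1 (others 0.89 to 1.00), -1.71 for Fen1 (others -1.26 to -1.10), 0.79 for Gsta3 (others -0.19 to 0.05), 0.88 for Pdgfrb (others 1.31 to 1.46). Air rat 8 was at -0.42 for Ramp1 (others 0.04 to 0.13), 0.46 for Tbx21 (others 1.06 to 1.31). Low dose rat 54 was at -0.0805 for Cd14 (others 0.49 to 0.62), -0.28 for Gsta3 (others 0.49 to 0.74), 3.78 for Myh6 (others -1.02 to -0.35), 3.95 for Napsa (others 4.41 to 4.57). Low dose rat 54 was at 0.63 for RT1-DMa (others 1.02 to 1.17), 0.18 for Retreg1 (others 0.03 to 0.04), 0.49 for Sqstm1 (others 0.77 to 0.83). Air rat 10 was at -0.47 for Hmox1 (others -1.62 to -1.43), 0.70 for Npas2 (others 1.30 to 1.52), 1.58 for Nr1d1 (others 0.92 to 1.08), 2.19 for Slc39a8 (others 1.48 to 1.68). Air rat 10 was at -0.36 for Ttc7a (others -0.20 to -0.17). Low dose rat 53 was at -3.05 for Ccl2 (others -4.98 to -4.43), 3.98 for Il1b (others 2.02 to 2.51). Low dose rat 56 was at 0.97 for Ltc4s (others 0.33 to 0.51). Low dose rat 55 was at 0.67 for Tac1 (others 1.63 to 2.02). 

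The low dose difference changed between day 6 and day 28 for 35 of the named genes (test of the change, adjusted p under 0.05). The change was positive at 2.32 for Serpinb10, 1.90 for Tac1, 1.83 for Egr2, 1.68 for Pparg, 1.67 for Clec7a, 1.44 for Pla2g2d, 1.37 for Btg2. Further values were 1.102 for Cry1, 0.77 for Myc. It was negative at -4.12 for Lcn2, -3.70 for Defb5, -3.38 for Ccl17, -3.33 for Mmp12, -3.24 for S100a9, -3.22 for Ccl2, -3.21 for Ccl22. Further values were -2.999 for Ccl12, -2.98 for Ccl7, -2.42 for Slc26a4, -2.20 for Il1r2, -2.03 for Nr1d1, -1.80 for Dbp, -1.78 for Cxcl10. Further values were -1.71 for Spp1, -1.71 for Idi1, -1.68 for Rsad2, -1.52 for Cdca3, -1.41 for Cdk1, -1.39 for Sqle, -1.37 for Cthrc1. Further values were -0.92 for Tnc, -0.85 for Duoxa1, -0.67 for Me1, -0.59 for Slc40a1, -0.44 for Retreg1.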

How the results depend on the processing

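Nr1d1 and Dbp were past the threshold, and lower, under every alternative run. The 2 genes of low dose against air at day 28 became 5 with the Feature Extraction processed signals, 5 with Cy5 alone, 126 with array weights (median SE 0.10 against 0.12) and 410 without air rat 8 and low dose rat 54, a pair chosen after the data were seen; 103 genes were shared by these last. Leaving out single rats gave 2 to 6, the highest without air rat 8. High dose against low dose at day 28 (26) gave 9 with only the groups compared and 14 on the 15 arrays of day 28, and 17 to 27 without single rats. The change between days (359) gave 159 with median centring, 1362 with array weights and 279 to 426 without single rats. Low dose at day 6 (1238) gave 573 with median centring, 3089 with array weights and 869 to 1442 without single rats. High dose against air at day 28 (34) gave 55 with the processed signals, 8 with median centring, 110 with Cy5 alone, 12 with only the groups compared, 21 on the 15 arrays, 815 without the same pair, and 11 to 326 without single rats. The causes were not tested. Median centring moved the median of all genes in low dose against air to 0.11 from -0.01. Signs were compared for the 148 named genes only. None of these changed sign where it was called in either setting, and 33 did so while not called. No paired analysis was possible because the groups share no rat numbers.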

Other observations

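Some genes outside the clock passed the threshold at day 28 with array weights but not in the reported fit. Cd14, a receptor for bacterial lipopolysaccharide, differed by 0.67 ± 0.15 with weights (SE, limma, adjusted p = 0.0383) and by 0.52 ± 0.18 without (adjusted p = 0.760). It was -0.40 to 0.36 in air rats and -0.08 to 0.62 in low dose rats, with air rat 8 highest among the air rats and low dose rat 54 lowest among the low dose rats. Cdkn1a, which encodes the cell cycle inhibitor p21, differed by 0.68 ± 0.14 with weights (adjusted p = 0.0378) and by 0.57 ± 0.17 without (adjusted p = 0.760). Its second probe gave -0.08 in the reported fit, so the probes of Cdkn1a disagreed in direction. Tnc, a matrix protein of repairing tissue, differed by -0.66 ± 0.15 with weights (adjusted p = 0.0399) and by -0.56 ± 0.17 without (adjusted p = 0.760). Slc40a1, the iron exporter ferroportin, differed by -0.37 with weights and by -0.32 without, and its second probe gave -0.23. The groups of all 4 genes overlapped.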
